A study of Mus musculus with 10 samples.

Results

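CD117+ splenocytes of RasGRP4-null mice were compared with those of WT mice late in the response to LPS, at 36 and 48 h. The comparison rests on 4 of the 10 arrays of the series, the WT and the RasGRP4-null array at 36 h and the WT and the RasGRP4-null array at 48 h, with the time points taken from the titles of the samples. Each array was hybridized with RNA of CD117+ cells that were purified by magnetic positive selection from the spleens of male C57BL/6 mice aged 9 to 12 weeks and cultured with 1 µg/ml LPS, with 5 mice per genotype. The RasGRP4-null mice carry a targeted inactivation of the gene in every cell. There was 1 array per genotype and time point, and the cells were divided into aliquots before culture, so that the arrays at 36 and 48 h of a genotype may come from the same preparation. Cells without LPS were measured at 0 h only.

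RasGRP4 belongs to the RasGRP family of guanine nucleotide exchange factors, which are recruited to membranes by diacylglycerol and load Ras proteins with GTP, and it is best known from mast cells and other myeloid cells. LPS, a component of the outer membrane of Gram-negative bacteria, signals through TLR4 to NF-kB, MAP kinases and interferon regulatory factors. In the mouse spleen it also drives B cells to divide and to become antibody-secreting cells, which enlarge their endoplasmic reticulum (ER) under the control of the transcription factor XBP1. CD117 is the receptor tyrosine kinase encoded by Kit.

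The values are PLIER intensities, and all differences are RasGRP4-null minus WT on the scale log2(intensity + 16), on which the changes of dim transcripts are understated. Folds are given on the same scale. Where 1 or both arrays of a group were below background, the fold is a lower bound with those arrays set at background. limma was fitted to the 4 arrays with genotype and time point as terms, over the 9954 genes with an intensity of at least 50 on at least 2 of the 4 arrays. A gene was called when its p-value, adjusted by Benjamini-Hochberg, was at or below 0.05. The fit left 1 residual degree of freedom and borrowed most of its spread from the other genes, so that an adjusted p describes these arrays and not a population of mice. Olfactory receptors, which splenocytes are not known for, gave the background of an array as the 95th percentile over their 1080 probe sets, 29.0 to 30.5 on the late arrays.

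Rasgrp4 itself could not be used to check the labels of the late arrays. Its transcript had an intensity of 86.4 in untreated WT cells and 16.7 in untreated RasGRP4-null cells. On the 4 late arrays it lay between 23.2 and 25.5, below background in both genotypes. Kit had intensities of 184.1 and 256.8 in WT cells and of 237.5 and 270.8 in RasGRP4-null cells at 36 and 48 h, and the groups overlapped (log2 difference 0.21, adjusted p = 0.317 from limma).

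Transcripts of B cells were present in the late cultures. All 5 B-cell markers on the array (the list holds 6) were above background on the 4 arrays, with a summed intensity of 5587 to 6593. Above background on all 4 arrays were also 5 of 6 markers of conventional DCs (summed intensity 698.3 to 766.5), 4 of 4 of T cells (465.3 to 516.2), 5 of 6 of NK cells (968.4 to 1254), 2 of 4 of plasmacytoid DCs (1694 to 1923), 3 of 8 of mast cells (613.3 to 992.2), 3 of 7 of macrophages and monocytes (227.0 to 257.2) and 2 of 4 of progenitors (281.0 to 364.3). Not above background on any of the 4 arrays were all 6 neutrophil markers, Csf1r and Lyz2 of macrophages, Mcpt4 and Tpsb2 of mast cells, Siglech and Klk1 of plasmacytoid DCs, and Cd34 and Meis1 of progenitors. The markers of plasma cells summed to 2083 and 2163 in WT cells and to 3411 and 3694 in RasGRP4-null cells. Sums over different markers are not on a common scale, so that they do not give the shares of the cell types. In cells measured as a mixture, more cells of a type and more RNA per cell cannot be told apart.

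The labels of the series disagree on the time points of the RasGRP4-null arrays. The titles and descriptions give 36 and 48 h for the late RasGRP4-null arrays, whereas their source names give 24 and 36 h. The RasGRP4-null array titled 24 h is likewise given as 12 h, so that values and differences at 24 h, printed by title, carry the same doubt. That array correlated with the WT array of 24 h to 0.976 and with that of 12 h to 0.971. The RasGRP4-null array titled 36 h correlated best across genes with the WT array of 36 h (Pearson's r = 0.979) and less with those of 48 h (0.971) and 24 h (0.959). The RasGRP4-null array titled 48 h correlated with the WT arrays of 36 h and 48 h to the same extent (0.979 for each). These are correlations across genes, which are not independent replicates. Most labels thus give the hours of the titles, but the values of the arrays do not settle the time points. The differences are therefore also given with the time points of the source names. There the RasGRP4-null arrays titled 36 and 48 h are set against the WT arrays of 24 and 36 h. That second comparison shares 3 of its 4 arrays with the first.

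Of the 9954 genes, 265 (2.66%) were called higher and 233 (2.34%) were called lower in the RasGRP4-null cells, together 5.00%. At an unadjusted p under 0.05 there were 1873 genes. The median difference over all genes was -0.02. Among the called genes the median difference was 0.52 (higher) and -0.47 (lower), and the smallest was 0.37 in either direction. A change of at least 2-fold was seen in 15 genes called higher and 11 called lower, and 7 genes were at least 2-fold higher and 7 at least 2-fold lower at both time points. The differences at 36 and 48 h correlated across genes with r = 0.54. The number of calls depended on where the spread was taken from. With the spread of all 8 LPS arrays, 24 genes were called higher and 17 lower, and each of them was among the calls above.

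**Figure D1:**
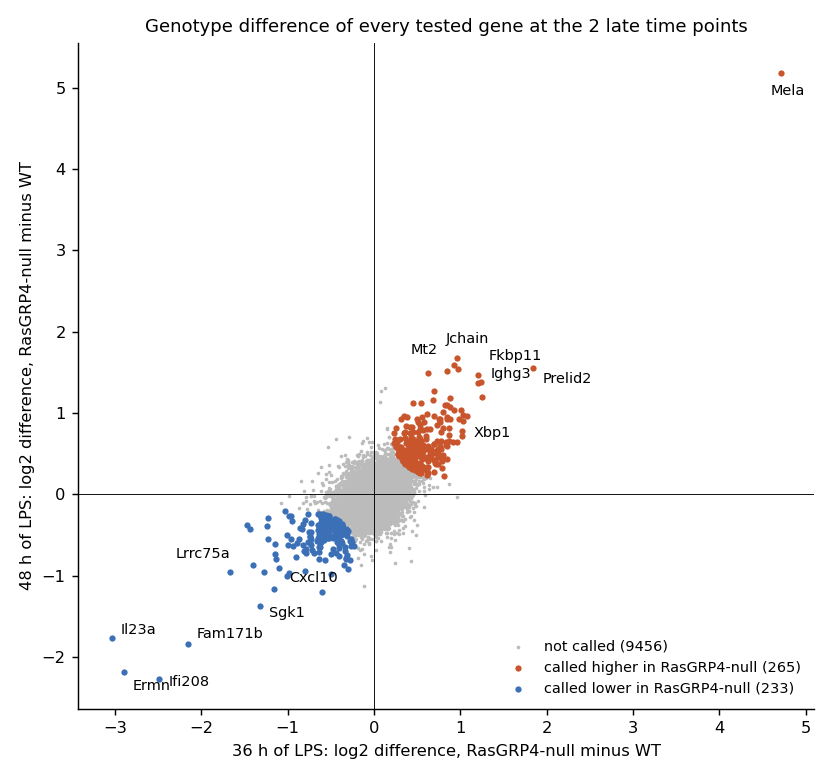
Log2 difference between RasGRP4-null and WT cells at 36 h of LPS (x axis) and at 48 h (y axis), on the scale log2(PLIER intensity + 16), 1 point per gene tested (9954 genes). Orange points were called higher (265), blue points lower (233) and grey points were not called; Mela lies far from all other genes at the upper right, and Ermn, Il23a, Ifi208 and Fam171b lie farthest at the lower left.

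The genes called higher and those called lower had different histories. For the 265 genes called higher, the median difference between the genotypes was 0.13 and 0.12 on the arrays of 0 and 12 h, 0.31 on those of 24 h, and 0.49 and 0.53 on those of 36 and 48 h. For the 233 genes called lower it was -0.01, 0.01 and 0.06 at 0, 12 and 24 h, and -0.52 and -0.44 at 36 and 48 h. Over all genes tested the median at 24 h was 0.11, above those of the other time points (-0.03 to -0.01). The values of these 233 genes at 36 h were above those at 24 h by a median of 0.73 in WT cells and of 0.16 in RasGRP4-null cells, whereas over all genes tested the WT median was 0.14. The late values chose the genes in these medians, which are a description.

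Transcripts of the secretory apparatus were a large group among those higher in RasGRP4-null cells. Xbp1, which encodes the transcription factor that builds up the ER of secretory cells, had intensities of 923.7 and 923.1 in WT cells and of 1898 and 1742 in RasGRP4-null cells at 36 and 48 h. The 2 RasGRP4-null values were nearly 2-fold above both WT values (log2 difference 0.97, standard error 0.0978, adjusted p = 1.71e-04 from limma). Of the 18 genes of the unfolded protein response, 12 were called higher, none was called lower, and the median difference was 0.47 (2.66% of all genes tested were called higher, with a median of -0.02). In 16 of the 18, both RasGRP4-null arrays were above both WT arrays, which held for 19.1% of all genes tested.

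Creld2, an ER protein secreted under ER stress, had intensities of 614.8 and 561.9 in WT cells and of 1232 and 1083 in RasGRP4-null cells (0.96, adjusted p = 1.71e-04 from limma). Sdf2l1, a partner of the ER chaperone BiP, went from 341.2 and 302.8 to 637.9 and 510.2 (0.80). Pdia6, a protein disulfide isomerase, was measured at 636.7 and 698.1 in WT cells and at 1098 and 1104 in RasGRP4-null cells (0.71). The 2 groups did not overlap in any of these genes. The smaller differences of the list were those of the co-chaperones Dnajb9 (0.63), Dnajb11 (0.57) and Dnajc3 (0.52), of Hyou1, an ER chaperone (0.52), of Manf, an ER-resident protein that is also secreted (0.49), of Syvn1, the ubiquitin ligase of ER-associated degradation (0.44), and of Calr and Pdia3, which fold glycoproteins (0.38 and 0.37). The adjusted p of these 8 genes ranged from 0.00514 to 0.0476 (limma). Hspa5, which encodes BiP, and Canx were not called. Their intensities were 1450 and 1597 (WT) against 1559 and 1908 (RasGRP4-null) for Hspa5, and 1301 and 1295 against 1471 and 1479 for Canx. Ern1, which encodes the sensor IRE1 that splices the Xbp1 transcript, was lower at 36 h and higher at 48 h (441.9 and 539.9 in WT cells, 362.2 and 689.4 in RasGRP4-null cells).

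The promoters of these genes were read from the RefSeq annotation of the mouse genome (build GRCm38.p6), 250 bases before to 50 bases after the start of each gene. They are shown because 7 of the genes called higher carry the ER stress response element, CCAAT and CCACG with any 9 bases between them, to which ATF6 and XBP1 bind together with NF-Y. Both strands were searched for the exact letters. Each sequence is the strand of the gene, 5′ to 3′, 80 bases long, with the element in capitals. In Creld2, Derl3, Ero1b and Calr the element lies on the opposite strand, so that the capitals show its reverse complement.
Creld2: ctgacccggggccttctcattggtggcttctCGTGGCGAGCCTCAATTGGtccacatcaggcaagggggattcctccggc
Pdia6: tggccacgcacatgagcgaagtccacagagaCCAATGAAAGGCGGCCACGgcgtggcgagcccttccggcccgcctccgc
Derl3: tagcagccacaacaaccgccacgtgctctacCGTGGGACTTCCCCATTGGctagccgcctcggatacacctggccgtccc
Dnajc3: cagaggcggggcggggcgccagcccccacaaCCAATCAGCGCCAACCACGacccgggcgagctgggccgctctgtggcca
Ero1b: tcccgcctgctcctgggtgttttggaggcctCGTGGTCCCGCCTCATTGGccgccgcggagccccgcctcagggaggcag
Syvn1: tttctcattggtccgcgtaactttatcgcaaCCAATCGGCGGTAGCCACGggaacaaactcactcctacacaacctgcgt
Calr: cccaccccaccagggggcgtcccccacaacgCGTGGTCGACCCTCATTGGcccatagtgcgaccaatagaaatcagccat
The windows are chr15:88819489-88819568 (Creld2, plus strand), chr12:17266460-17266539 (Pdia6, plus), chr10:75893211-75893290 (Derl3, plus), chr14:118937796-118937875 (Dnajc3, plus), chr13:12565651-12565730 (Ero1b, plus), chr19:6046501-6046580 (Syvn1, plus) and chr8:84847045-84847124 (Calr, minus).

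The element was found in 37 of 27025 promoters (0.137%). Of the 7450 genes tested that have a promoter in the table, 14 (0.188%) held it, and 7 of these 14 were called higher and none lower. Over all 7450 genes the shares called were 2.42% (higher) and 2.05% (lower). Among the genes of the unfolded protein response, 7 of the 16 with a promoter held the element. Hspa5 and Canx, which were not called, were also among the 14. A match to these letters is a description of the sequence and does not show that a factor was bound.

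A shorter XBP1 element, TGACGTGG, was found in 0.714% of all promoters and in 83 of the 7450 genes tested (1.11%). It was held by 6 of the 180 genes called higher that have a promoter (3.33%) and by none of the 153 called lower. The median difference of the 83 genes was 0.04. With a promoter in the table, 0 of 16 genes of the unfolded protein response and 1 of 10 plasma cell genes held the shorter element. It is shown, in capitals, in 3 of the 6 genes called higher, picked as genes of the secretory and plasma cell programme.
Txndc5: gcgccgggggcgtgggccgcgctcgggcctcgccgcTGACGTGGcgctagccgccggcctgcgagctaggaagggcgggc
Sec24d: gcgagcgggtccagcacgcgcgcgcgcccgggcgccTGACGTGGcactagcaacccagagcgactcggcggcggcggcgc
Pou2af1: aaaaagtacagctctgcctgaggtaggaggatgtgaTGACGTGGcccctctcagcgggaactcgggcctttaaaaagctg
These windows are chr13:38528009-38528088 (Txndc5, minus strand), chr3:123267434-123267513 (Sec24d, plus) and chr9:51213593-51213672 (Pou2af1, plus). Txndc5, an ER disulfide isomerase, had intensities of 437.6 and 422.3 in WT cells and of 801.9 and 924.3 in RasGRP4-null cells (0.98, adjusted p = 2.30e-04 from limma). Sec24d, a coat protein of the vesicles that leave the ER, was at 123.0 and 98.1 in WT cells and at 209.8 and 206.9 in RasGRP4-null cells (0.83). Ero1b, an ER oxidase, was at 389.1 and 376.9 in WT cells and at 554.5 and 532.8 in RasGRP4-null cells (0.49). Each of these genes was higher on both RasGRP4-null arrays.

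Genes of plasma cells moved in the same direction. Of 12 tested, 8 were called higher and none lower, with a median difference of 0.53, and in 11 both RasGRP4-null arrays were above both WT arrays. Over all genes tested the shares were 2.66% (called higher) and 19.1% (both RasGRP4-null arrays above both WT arrays). Fkbp11, a prolyl isomerase of the ER, was at 61.7 and 50.2 in WT cells and at 162.4 and 167.2 in RasGRP4-null cells (1.33, 2.52-fold, adjusted p = 2.34e-05 from limma). Jchain, which encodes the chain that joins IgM and IgA into polymers, was at 1838 before LPS and at 766.2 and 531.8 at the late time points in WT cells. The RasGRP4-null values were 2653 before LPS and then 1503 and 1734, a late difference of 1.32 (adjusted p = 2.44e-04 from limma).

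The transcription factors of the plasma cell were part of this group. Prdm1, which encodes BLIMP-1, was at 321.2 and 334.2 in WT cells and at 561.2 and 581.3 in RasGRP4-null cells (0.77, adjusted p = 6.83e-04 from limma), and it was the higher in RasGRP4-null cells at each of the 5 time points. Irf4 was at 846.5 and 745.8 against 1295 and 1024 (0.53). Pou2af1, the B-cell coactivator OBF-1, was at 1118 and 918.2 against 1762 and 1608 (0.72). Derl3 (0.51), of ER-associated degradation, Sec11c (0.54), of the signal peptidase, and Xbp1 completed the calls of the list. Bhlha15, which is not on the list and was added after its values were seen, encodes MIST1, a factor of secretory cells, and was at 47.3 and 40.9 against 99.6 and 83.9 (0.84). Mzb1, Slamf7, Edem1 and Ell2 were not called. Ell2, an elongation factor of antibody-secreting cells, was represented by a pair of probe sets that differed in sign. The probe set tested was at 390.5 and 406.9 in WT cells and at 360.4 and 309.7 in RasGRP4-null cells (-0.24), and the other was at 401.6 and 369.5 against 698.6 and 609.8 (0.74, adjusted p = 0.00240 from limma over all probe sets).

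The transcripts of immunoglobulins had the highest median of these groups. The 22 immunoglobulin genes tested were collected after their values were seen, so that their count is a description. All 22 were higher on both RasGRP4-null arrays than on both WT arrays, 16 were called higher and none lower, and the median difference was 0.61. Ighg3, which encodes the heavy chain of IgG3, the IgG isotype to which LPS switches mouse B cells, was at 821.3 and 870.5 in WT cells and at 1964 and 2295 in RasGRP4-null cells (1.31, 2.48-fold, adjusted p = 1.98e-05 from limma). This difference was present before LPS, when Ighg3 was at 433.7 in WT cells and at 2131 in RasGRP4-null cells. The probe set named Ighg was at 342.9 and 282.7 against 538.0 and 822.8 (1.06). The brightest probe set of Ighm, the heavy chain of IgM, was at 3020 and 3191 against 3616 and 3607 (0.22) and that of Igk, the kappa light chain, at 3632 and 3738 against 4262 and 4412 (0.23), and neither was called. The probe sets named Ighm disagreed, however. Of the 8 past the filter 5 were called higher when all probe sets were tested, with differences of up to 2.11, and 1 was called lower (243.0 and 225.9 in WT cells against 148.0 and 151.5 in RasGRP4-null cells, -0.59). It was the only gene called in opposite directions among the 261 genes with more than 1 such probe set. Variable genes of the kappa chain ranged up to Igkv4-59 (723.1 and 596.1 against 1177 and 1458, 0.98) and Igkv19-93 (1267 and 1208 against 2340 and 2557, 0.97). Iglv1, a variable gene of the lambda chain, was at 2534 and 2600 against 3537 and 4036 (0.55). Variable genes are similar in sequence, so that signal assigned to a member of the family is uncertain. The summed intensity of the 28 immunoglobulin probe sets was 32607 and 32046 in WT cells and 43744 and 48673 in RasGRP4-null cells.

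Part of these differences was present before LPS. The median difference at 0 h was 0.27 (unfolded protein response), 0.33 (plasma cells) and 0.46 (immunoglobulins), against -0.02 over all genes tested. In the same order it was -0.07, 0.11 and -0.07 at 12 h, and 0.19, 0.33 and 0.37 at 24 h. These groups were also higher when the time points were taken from the source names. With those time points 1.64% of all genes were called higher and 0.201% lower. Of the unfolded protein response 5 genes were called higher (median 0.55), of the plasma cell genes 6 (median 0.65) and of the immunoglobulin genes 11 (median 0.64), and none was called lower. With the spread of 8 LPS arrays the calls in these lists were Xbp1 and Creld2 (unfolded protein response), Prdm1, Jchain, Xbp1 and Fkbp11 (plasma cells), and Ighg3 and Igkv19-93 (immunoglobulins).

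**Figure D2:**
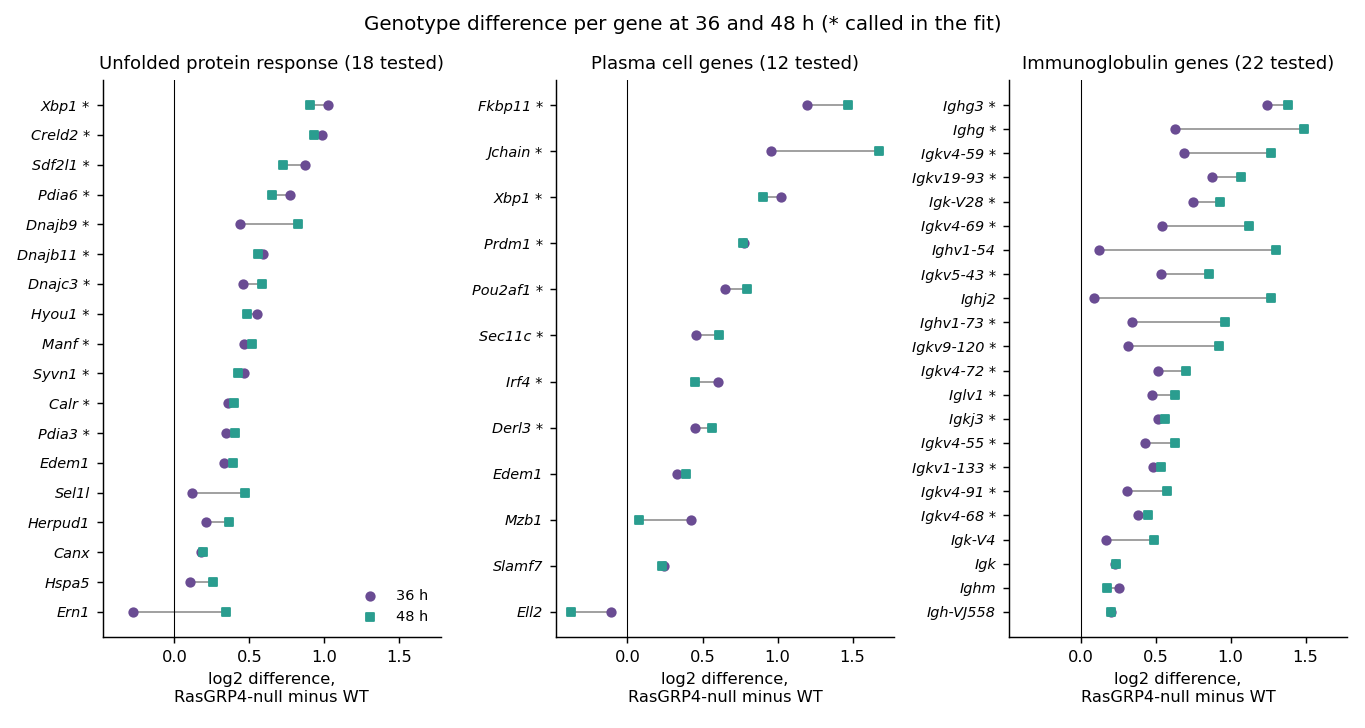
Log2 difference between RasGRP4-null and WT cells at 36 h (circles) and at 48 h (squares) for each tested gene of the unfolded protein response (18 genes), plasma cells (12 genes) and immunoglobulins (22 genes), on the scale log2(PLIER intensity + 16). An asterisk marks a gene called in the fit; all values but those of Ell2 and of Ern1 at 36 h lie to the right of 0.

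The B-cell list held no gene called higher. Of its 13 genes tested 4 were called lower, with a median of -0.11 (2.34% of all genes tested were called lower). In other settings 1 gene of the list was called higher (quantile normalization, a pseudocount of 64 or an intensity trend) or 2 (a filter at 100). Spib, a transcription factor of B cells and plasmacytoid DCs, was at 1004 and 930.2 in WT cells and at 767.0 and 621.4 in RasGRP4-null cells (-0.48, adjusted p = 0.0173 from limma). Cd72, an inhibitory receptor, and Ebf1, which specifies the B-cell lineage, were also called lower (-0.38 for each). Ms4a1, which encodes CD20, was at 1089 and 1056 against 1191 and 1127, and Cd79a, of the B-cell receptor, was at 1608 and 1589 against 1480 and 1403. Neither was called. The chemokine receptor Cxcr5, which guides B cells to follicles, was called lower (1379 and 1249 against 984.7 and 869.0, -0.50). None of the 4 B-cell calls was made with the spread of 8 LPS arrays.

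Some genes of the 2 T-cell lists were called higher in RasGRP4-null cells, but none of the 3 T-cell markers tested was called. Cd4 was at 124.9 and 151.7 in WT cells and at 268.1 and 328.3 in RasGRP4-null cells (1.02, adjusted p = 1.33e-04 from limma). Icos, a costimulatory receptor, was at 66.2 and 72.5 against 102.1 and 106.9 (0.50). These were the 2 calls among 13 T-cell genes, whose median was 0.18 (2.66% of all genes tested were called higher). Cd3e, which is part of the T-cell receptor complex, was at 165.3 and 166.6 against 192.2 and 194.2 and was not called (adjusted p = 0.289 from limma). Of 9 genes of regulatory and helper T cells 4 were called higher, among them Cxcr6, a chemokine receptor (30.7 and 45.6 against 57.7 and 74.6, 0.61), and Ikzf2, which encodes HELIOS (0.40). Tbx21, which encodes T-BET, was called lower (339.3 and 270.5 against 239.7 and 212.4, -0.40). No gene of either list was called with the spread of 8 LPS arrays.

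The cytokine transcripts divided into 2 groups. Of 18 interleukins and growth factors tested, 5 were called higher and 3 lower (2.66% and 2.34% of all genes tested). With the spread of 8 LPS arrays 1 was called higher and 2 lower. With the time points of the source names 4 were called higher and none lower. Il10, which encodes an inhibitor of inflammatory cytokines, was at 467.2 and 441.2 in WT cells and at 846.7 and 698.0 in RasGRP4-null cells (0.74, adjusted p = 0.00134 from limma). Csf2, which encodes GM-CSF, was at 73.8 and 69.1 against 127.7 and 173.4 (0.92), and it was the higher in RasGRP4-null cells at all 5 time points. Il22 was at 75.4 and 101.1 against 120.6 and 200.7 (0.73), Il13 at 36.4 and 41.2 against 53.9 and 57.9 (0.39), and Il1b at 240.5 and 158.8 against 338.2 and 256.8 (0.55). For Il1b, an inflammatory cytokine whose transcript was at its highest at 12 h in both genotypes, the difference had the opposite sign with the time points of the source names (-0.20).

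The 3 cytokine transcripts called lower were Il23a, Ebi3 and Il6. Il23a encodes the p19 subunit of IL-23. Its intensity was 29.4 or less on the WT arrays of 0, 12 and 24 h and 294.1 and 507.3 at 36 and 48 h. In RasGRP4-null cells it was 21.8 at 36 h, below background, and 137.8 at 48 h (measured difference -2.40, at least 4.84-fold lower, adjusted p = 5.43e-05 from limma). Ebi3, a subunit shared by IL-27 and IL-35, was at 816.5 and 971.2 in WT cells and at 360.7 and 579.3 in RasGRP4-null cells (-0.94). Il6 was at 672.8 and 820.8 against 294.9 and 533.6 (-0.88, adjusted p = 0.00174 from limma), whereas at 12 and 24 h it was the higher in RasGRP4-null cells (400.6 and 228.9 against 750.7 and 298.7). With the time points of the source names the differences of these genes were -0.39 (Il23a), 0.20 (Ebi3) and 0.01 (Il6).

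Ifng, the transcript of IFN-γ, was not called at the late time points. It was at 100.7 and 69.5 in WT cells and at 82.3 and 72.0 in RasGRP4-null cells, and the groups overlapped (-0.10, standard error 0.105, adjusted p = 0.668 from limma). At 12 and 24 h it had been at 548.1 and 260.9 in WT cells and at 254.4 and 127.1 in RasGRP4-null cells. Tnf was at 180.9 and 166.3 against 173.9 and 139.7 (-0.14), Il12a at 181.9 and 123.9 against 134.3 and 113.1 (-0.26), and Il15 at 73.4 and 65.6 against 77.3 and 91.8 (0.23). None of these was called. Tnfsf4, which encodes the costimulatory ligand OX40L, was called higher (84.6 and 104.5 against 116.5 and 146.8, 0.42, adjusted p = 0.0285 from limma). Il12b, Ccl2, Il18 and Ptgs1 were too dim to be tested. Their late intensities were 30.3 to 43.2 (Il12b), 40.0 to 63.7 (Ccl2), 23.9 to 41.0 (Il18) and 19.1 to 27.2 (Ptgs1, which was below background on all 4 arrays).

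Among 10 chemokines tested 3 were called higher and 1 lower (2.66% and 2.34% of all genes tested). Ppbp, which encodes the platelet chemokine CXCL7, was at 18.7 or less in WT cells, below background, and at 53.1 and 73.2 in RasGRP4-null cells, at least 1.71-fold higher (adjusted p = 2.34e-05 from limma). Xcl1, a lymphotactin made by NK and T cells, was at 118.9 and 176.0 against 224.0 and 275.0 (0.72). Ccl22, which attracts regulatory T cells, was at 402.2 and 378.1 against 571.6 and 477.7 (0.41). Cxcl10, an interferon-induced chemokine that attracts T and NK cells, was at 671.6 and 740.1 in WT cells and at 303.8 and 387.7 in RasGRP4-null cells (-1.10 at 36 h and -0.91 at 48 h, 2.01-fold over both, adjusted p = 1.62e-04 from limma). At 12 and 24 h the Cxcl10 values of the genotypes had been close (1163 and 428.1 in WT cells, 1176 and 443.3 in RasGRP4-null cells). With the time points of the source names the difference of Cxcl10 was -0.62.

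Cxcl10 had the largest difference of the 5 genes called lower among the targets of IFN-γ. Of 21 tested 5 were called lower and 1 higher, with a median of -0.21 (2.34% and 2.66% of all genes tested were called lower and higher). In 10 of the 21, both RasGRP4-null arrays were below both WT arrays, which held for 24.6% of all genes tested. Gbp2, Gbp3 and Gbp5 encode guanylate-binding proteins, GTPases that attack intracellular pathogens. Gbp2 was at 2033 and 2002 in WT cells and at 1420 and 1534 in RasGRP4-null cells (-0.45, adjusted p = 0.0216 from limma). Gbp3 was at 550.2 and 499.4 against 393.1 and 384.7 (-0.42, adjusted p = 0.0300 from limma). Gbp5 was at 748.0 and 655.0 against 509.2 and 540.9 (-0.40, adjusted p = 0.0460 from limma). Iigp1, an immunity-related GTPase, was at 814.1 and 855.5 against 562.9 and 706.4 (-0.40). Ciita, the coactivator of MHC class II genes, was the gene called higher (168.6 and 142.8 against 236.7 and 191.9, 0.42). With the time points of the source names no gene of this list was called, and its median was -0.08. Only 1 gene was called lower and none higher with the spread of 8 LPS arrays, with no time point term or with a pseudocount of 1.

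The promoters of Cxcl10, Gbp2, Gbp3 and Gbp5 are shown for the interferon-stimulated response element. It was searched on both strands as GAAA and GAAA with any 2 bases between them. Ifi208, another gene called lower that holds it, was added, and Iigp1 was not among the holders. This letter pattern is held by 3.99% of all promoters and by 294 of the 7450 genes tested (3.95%), whose median difference was -0.04. The pattern was held by 13 of the 153 genes called lower (8.50%) and by 4 of the 180 called higher (2.22%), and by 9 of the 15 IFN-γ targets with a promoter. In Gbp2, Gbp3 and Gbp5 it lies on the opposite strand, and the capitals of Gbp3 span a pair of overlapping matches.
Cxcl10: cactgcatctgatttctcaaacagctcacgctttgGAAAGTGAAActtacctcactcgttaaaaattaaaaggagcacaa
Gbp2: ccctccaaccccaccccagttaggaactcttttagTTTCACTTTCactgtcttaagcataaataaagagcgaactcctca
Gbp3: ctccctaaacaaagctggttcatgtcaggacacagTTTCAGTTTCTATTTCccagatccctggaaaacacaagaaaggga
Gbp5: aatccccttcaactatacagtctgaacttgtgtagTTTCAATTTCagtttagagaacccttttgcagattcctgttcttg
Ifi208: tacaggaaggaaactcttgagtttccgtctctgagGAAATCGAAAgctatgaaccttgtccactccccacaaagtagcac
They are chr5:92349058-92349137 (Cxcl10, minus strand), chr3:142620569-142620648 (Gbp2, plus), chr3:142559964-142560043 (Gbp3, plus), chr3:142496734-142496813 (Gbp5, plus) and chr1:173673572-173673651 (Ifi208, plus) of GRCm38.p6.

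Of 27 genes induced by type I interferon 1 was called lower and none higher, with a median of -0.02. Over all genes tested 2.34% were called lower and 2.66% higher, so that this single call is near the share of all genes. The call was Ifi44 (1048 and 1008 against 679.9 and 849.7, -0.43). Of 19 targets of LPS and NF-kB 3 were called lower and 1 higher, with a median of -0.23. Acod1, which makes itaconate in activated macrophages, was at 458.0 and 487.6 in WT cells and at 231.7 and 308.4 in RasGRP4-null cells (-0.79, adjusted p = 0.00127 from limma). Saa3, an acute-phase protein, was at 187.5 and 210.7 against 123.8 and 143.9 (-0.52), and Ptgs2, the inducible cyclooxygenase, at 290.2 and 316.9 against 198.1 and 235.6 (-0.46). With the time points of the source names none of the 19 was called and the median was -0.10.

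Apart from Ifi208 and Sgk1, the largest falls in RasGRP4-null cells were of transcripts that appeared late in WT cells. Ermn, which encodes an actin-binding cytoskeletal protein, was at 6.9 or less on all arrays of 0, 12 and 24 h in both genotypes. It was at 203.0 and 408.4 in WT cells and at 13.4 and 77.2 in RasGRP4-null cells at 36 and 48 h (measured difference -2.54, at least 4.71-fold lower, standard error 0.140, adjusted p = 1.01e-06 from limma). Fam171b was at 124.8 and 309.8 in WT cells and at 15.5 and 75.2 in RasGRP4-null cells (measured differences -2.16 and -1.84, at least 3.35-fold lower over both), after 17.0 or less on the earlier arrays of both genotypes. In both genes the RasGRP4-null value at 36 h was below background and the value at 48 h was below the WT value at 36 h. Sgk1, a kinase of ion transport and survival, followed another course, from 494.4 before LPS to 50.4 at 24 h and back to 202.9 and 320.1 in WT cells. Its RasGRP4-null values were 477.0 and 74.1 at 0 and 24 h and then 71.7 and 113.2 (-1.35, 2.55-fold, adjusted p = 1.37e-05 from limma).

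Other transcripts called lower were likewise higher at 36 and 48 h than at 12 and 24 h in WT cells. Lrrc75a was at 585.5 and 519.2 against 172.7 and 259.2 (-1.32), and Arhgap33, a GTPase-activating protein, at 418.6 and 463.7 against 149.0 and 245.6 (-1.14). Tnfsf15, which encodes the TNF family ligand TL1A, was at 102.8 and 132.9 against 43.3 and 57.9 (-1.01). Gh, growth hormone, was at 121.2 and 174.7 against 53.5 and 81.4 (-0.98), and Marchf3, a ubiquitin ligase, at 113.4 and 114.6 against 42.7 and 59.3 (-0.97). Cish, an inhibitor of STAT5 signaling, was at 271.6 and 240.3 against 149.4 and 117.2 (-0.87). Pde7b, a phosphodiesterase of cAMP, was at 580.6 and 546.9 against 302.0 and 314.7 (-0.84). The transcript 6030468B19Rik was at 136.6 and 128.0 against 46.9 and 58.3 (-1.12). Saxo2, a protein of axonemal microtubules, was at 61.9 and 79.2 in WT cells and below background in RasGRP4-null cells, at least 1.90-fold lower. The adjusted p of these 9 genes ranged from 4.01e-05 to 4.51e-04 (limma), and in none of them did the groups overlap.

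**Figure D3:**
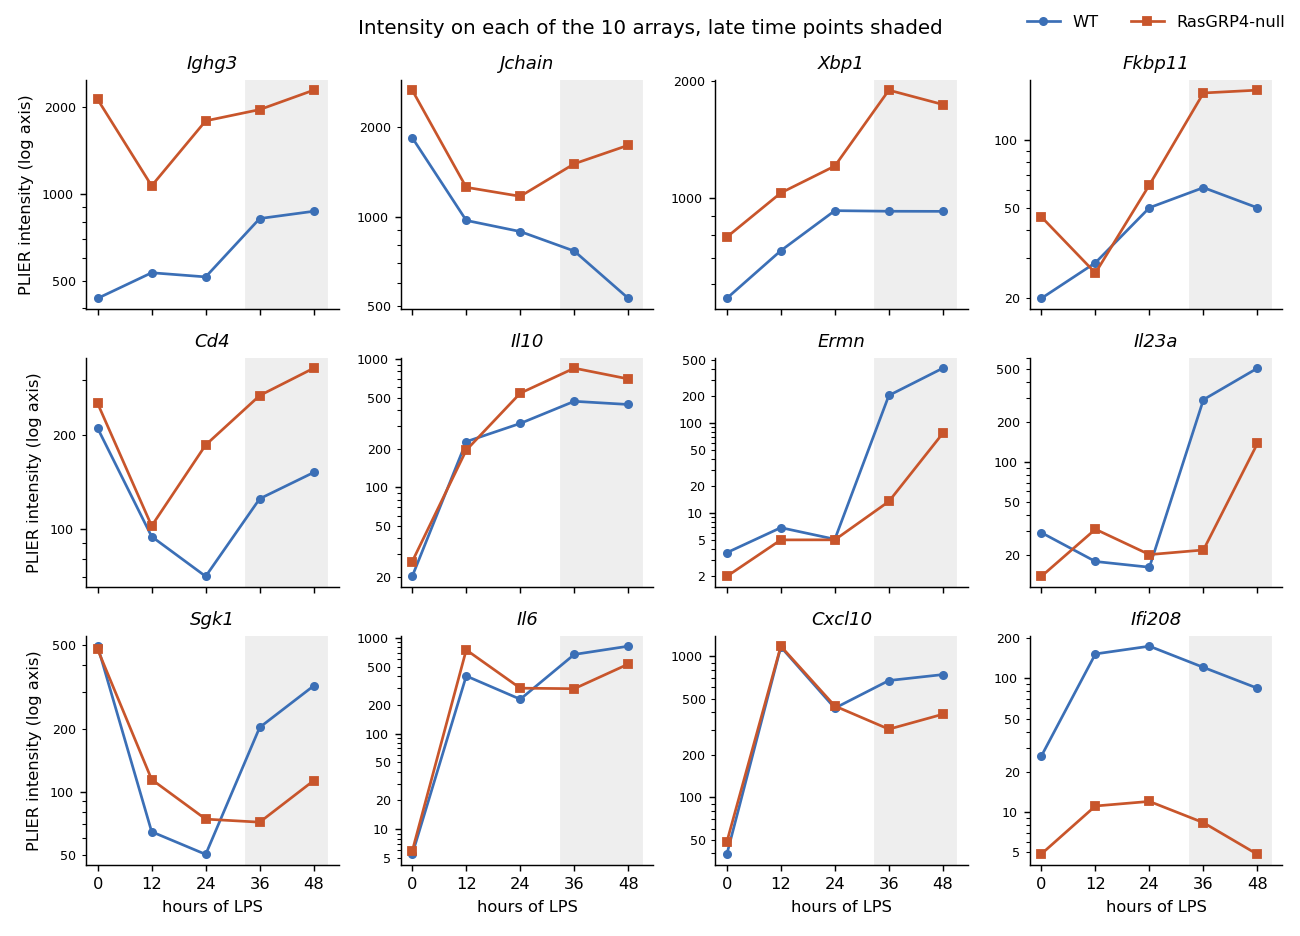
PLIER intensity (log axis) of 12 transcripts against hours of LPS on each of the 10 arrays, 1 array per point, WT in blue circles and RasGRP4-null in orange squares, with the late time points shaded. Ermn and Il23a appear at 36 h in WT cells (203.0 and 294.1) and reach 77.2 and 137.8 in RasGRP4-null cells at 48 h, whereas Ighg3 and Xbp1 are above WT at every time point.

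The late falls were far smaller with the time points of the source names. The difference of Ermn was then -0.38, that of Fam171b -0.31, that of Sgk1 -0.18, that of Lrrc75a -0.19, and those of Gh and Pde7b were 0.17 and 0.05. Of the 233 genes called lower, 157 kept their sign, 13 were also called lower, 1 was called higher, and the median was -0.12. That gene was Soat2, which esterifies cholesterol (378.5 and 446.2 in WT cells against 177.3 and 383.8 in RasGRP4-null cells, -0.62 with the time points of the titles and 0.92 with those of the source names). The groups of Soat2 overlapped, since its RasGRP4-null value at 48 h was above the WT value at 36 h. Of the 265 genes called higher, 248 kept their sign, 101 were also called higher, none was called lower, and the median was 0.55. A lower level at a given time and a later rise of the same size cannot be told apart in these genes while the labels disagree.

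**Figure D4:**
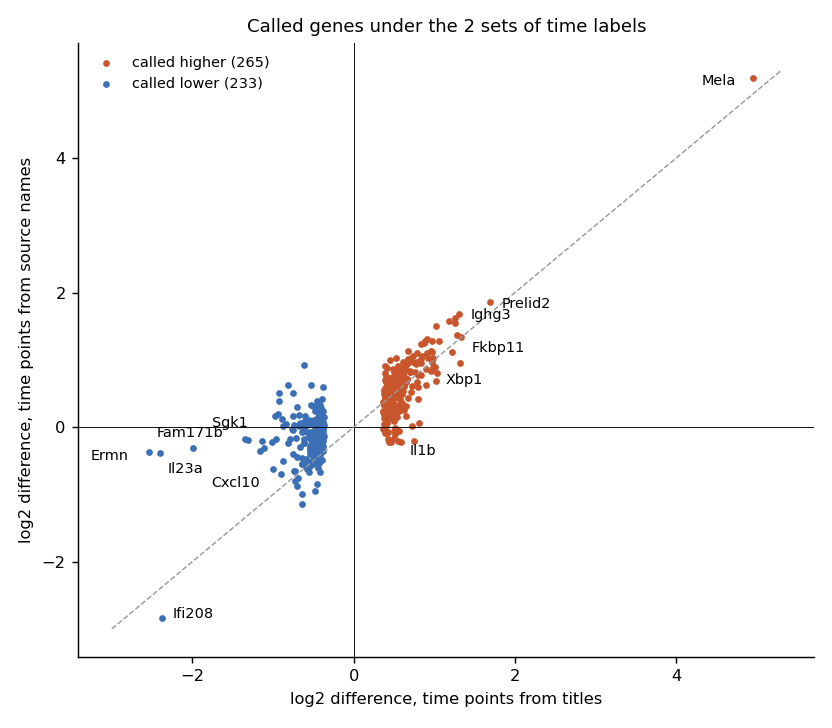
Log2 difference of the 265 genes called higher (orange) and the 233 called lower (blue) with time points from the titles (x axis) and from the source names (y axis), 1 point per gene; the dashed line marks equal values. The genes called higher scatter around the line, whereas most genes called lower lie near 0 on the y axis, except Ifi208, and their median there is -0.12.

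The test of the late difference against the earlier difference (the mean of 36 and 48 h minus the mean of 12 and 24 h, over the 8 LPS arrays) called 3 genes of 9954 (0.0301%), all lower. At an unadjusted p under 0.05 there were 1340 genes. The 3 genes were Ermn (-2.48, standard error 0.235), Fam171b (-1.99, standard error 0.181) and Sgk1 (-1.92, standard error 0.173), each with an adjusted p of 0.00995 (limma). Il23a (-2.73) and 6030468B19Rik (-1.59) came next (adjusted p = 0.0760 for each from limma). Ermn, Fam171b and Il23a were below background at 12 and 24 h in both genotypes and at 36 h in RasGRP4-null cells, so that these sizes are not exact. In the other direction no gene was called. The smallest p-values belonged to Ppbp (1.17) and Eaf2 (1.14), with an adjusted p of 0.0834 each. Ppbp was below background on all 4 earlier LPS arrays and both late WT arrays, so that its value has no exact size. Next came Fkbp11 (1.25) and mt-Tf, the mitochondrial tRNA for phenylalanine (1.27, adjusted p = 0.122 from limma). The late intensities of mt-Tf were 164.6 and 120.4 in WT cells and 299.4 and 224.8 in RasGRP4-null cells (0.81). Of 6330407A03Rik (1.20) and Gm4963 (1.23), the former was not called late (90.6 and 63.9 against 97.4 and 88.8) and the latter was called higher (76.9 and 78.0 against 102.1 and 119.1, 0.44).

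Some single transcripts outside these lists also differed between the genotypes at earlier time points. Ifi208, an interferon-inducible gene of the PYHIN family, was at 120.6 and 84.2 in WT cells and at 8.3 and 4.8 in RasGRP4-null cells, at least 2.59-fold lower (adjusted p = 9.86e-08 from limma). It was at or below 12.0 on all 5 RasGRP4-null arrays and at 151.9 and 173.6 in WT cells at 12 and 24 h, and the difference was -2.84 with the time points of the source names. Prelid2 was at 13.0 and 18.3 in WT cells and at 88.2 and 84.4 in RasGRP4-null cells, at least 2.23-fold higher, and it was above the WT value at each of the 5 time points. Mela, a melanoma antigen derived from an endogenous retrovirus, was at 88.5 and 83.6 in WT cells and at 2726 and 3594 in RasGRP4-null cells (4.95, 30.8-fold, adjusted p = 1.79e-10 from limma). Before LPS it was at 44.2 in WT cells and at 3825 in RasGRP4-null cells, but on the RasGRP4-null array of 12 h it was at 21.2, apart from the other RasGRP4-null arrays and below background. On the same array Ifi208 (11.1 against 151.9 in WT cells) and Prelid2 (38.8 against 20.3) were on the side of the other RasGRP4-null arrays. Rasgrp4 was below background on both arrays of 12 h, so that the label of this array was not settled. It is not among the 4 compared here, but it enters the late minus early test and the spread of 8 arrays. Without this array the earlier difference of that test rests on 24 h alone. Mela and Ifi208 have close copies in the genome, so that the assignment of their signal is uncertain.

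The inactivated gene lies among neighbours that can differ between the strains, and the 50 tested genes on either side of Rasgrp4 were therefore counted. Of these 100, 3 were called lower and none higher, with a median of -0.01 (2.34% of all genes were called lower). They were Arhgap33, Ffar2, a receptor of short-chain fatty acids (210.8 and 208.2 against 120.4 and 146.9, -0.60), and B9d2, a protein of the base of cilia (86.0 and 109.2 against 68.5 and 64.8, -0.45). None of the 100 was called with the time points of the source names, and the difference of Ffar2 was 0.09.

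The other members of the RasGRP family were measured as follows. Rasgrp3, which acts in B cells, was at 656.0 and 535.4 in WT cells and at 892.7 and 690.8 in RasGRP4-null cells (0.40, adjusted p = 0.0364 from limma). Rasgrp1, which acts in T cells, was at 254.9 and 260.5 against 213.6 and 213.9 (-0.25, adjusted p = 0.176 from limma). Rasgrp2, of platelets and lymphocytes, was at 46.6 and 38.5 against 47.4 and 41.7 and was not tested. Of 24 genes of the Ras and MAP kinase pathway, Rasal1, a Ras GTPase-activating protein, was called higher (53.3 and 54.6 against 76.8 and 83.4, 0.46) and Ksr1, a scaffold of the ERK cascade, was called lower (188.8 and 180.0 against 132.8 and 136.7, -0.41). These single calls are near the shares of all genes tested, of which 2.66% were called higher and 2.34% lower. Of 17 feedback targets of the MAP kinases, Junb (454.0 and 470.3 against 345.9 and 328.5, -0.44) and Dusp4, a phosphatase that inactivates MAP kinases (1220 and 1518 against 903.1 and 1204, -0.38), were called lower and none higher, with a median of -0.14. For Dusp4 the difference was 0.60 with the time points of the source names. No gene of either list was called with those time points or with the spread of 8 LPS arrays. Dgkg, a diacylglycerol kinase, which removes the lipid that recruits RasGRPs, was at 62.2 and 67.0 in WT cells and at 137.8 and 224.9 in RasGRP4-null cells (1.26, 2.39-fold, adjusted p = 1.62e-04 from limma).

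Further transcripts that were higher at both time points belong to no common group. Ckap4, an ER membrane protein, was at 102.4 and 78.5 against 265.4 and 200.5 (1.22). Mt2 and Mt1, which encode metallothioneins that bind zinc and copper, were at 302.4 and 164.1 against 588.8 and 524.3 (Mt2, 1.26) and at 279.3 and 272.6 against 514.1 and 532.4 (Mt1, 0.89). Eaf2, a partner of the ELL elongation factors, was at 65.4 and 52.0 against 155.5 and 116.1 (1.02), Rbm47, an RNA-binding protein, at 63.9 and 50.2 against 136.2 and 119.5 (0.98), and the predicted gene Gm12357 at 55.6 and 68.7 against 130.3 and 150.5 (1.00). All had an adjusted p between 2.51e-05 and 2.67e-04 (limma). Of 15 genes of cholesterol synthesis and uptake 3 were called higher, among them Cyp51 (0.52) and Insig1 (0.49), and their list had a median of 0.39 at 36 h and of 0.01 at 48 h. None of the 15 was called with the time points of the source names, the median was then 0.04 and the difference of Cyp51 was -0.02. Of 23 genes of mitosis 21 had a positive difference, and the median was 0.19, against -0.02 over all genes tested. Cdc20 alone was called higher (262.8 and 238.1 against 369.7 and 318.3, 0.43). This single call is near the 2.66% of all genes that were called higher. None of the 23 was called with the spread of 8 LPS arrays or with the time points of the source names. Of 15 regulators of cell death 2 were called lower and 13 were not called, with a median of -0.10 (2.34% of all genes were called lower). The 2 were Bcl2 (1406 and 1584 against 831.0 and 1098, -0.64) and Bcl2a1a (320.6 and 296.0 against 187.2 and 228.7, -0.54), both inhibitors of apoptosis. None of the 15 was called with the time points of the source names or with the spread of 8 LPS arrays.

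Small nucleolar RNAs (snoRNAs), which guide the chemical modification of ribosomal RNA and are cut from the introns of host genes, were lower in RasGRP4-null cells. This list too was collected after its values were seen. Of 41 tested 19 were called lower and none higher, with a median of -0.39, and in 27 both RasGRP4-null arrays were below both WT arrays. Over all genes tested the shares were 2.34% (called lower) and 24.6% (both RasGRP4-null arrays below both WT arrays). Snora31 was at 198.3 and 163.4 in WT cells and at 108.4 and 96.1 in RasGRP4-null cells (-0.73, adjusted p = 0.00121 from limma), Snord69 at 675.6 and 537.2 against 451.6 and 300.6 (-0.68), and Snord72 at 458.6 and 355.5 against 269.1 and 238.5 (-0.64). Of 12 spliced host transcripts of snoRNAs 5 were called lower and none higher, with a median of -0.33. Among them were Zfas1 (847.3 and 1040 against 545.0 and 682.3, -0.61) and Snhg5 (535.8 and 662.8 against 344.0 and 434.5, -0.60, but 0.09 with the time points of the source names). Before LPS the median differences of both lists were near 0 (0.07 and 0.00). With the time points of the source names 8 of the snoRNAs and 1 of the host transcripts were called lower, with medians of -0.37 and -0.03. No snoRNA was called with the spread of 8 LPS arrays. Probe sets of RNAs this short cover few positions and cannot tell a snoRNA from its unspliced host transcript.

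**Figure D5:**
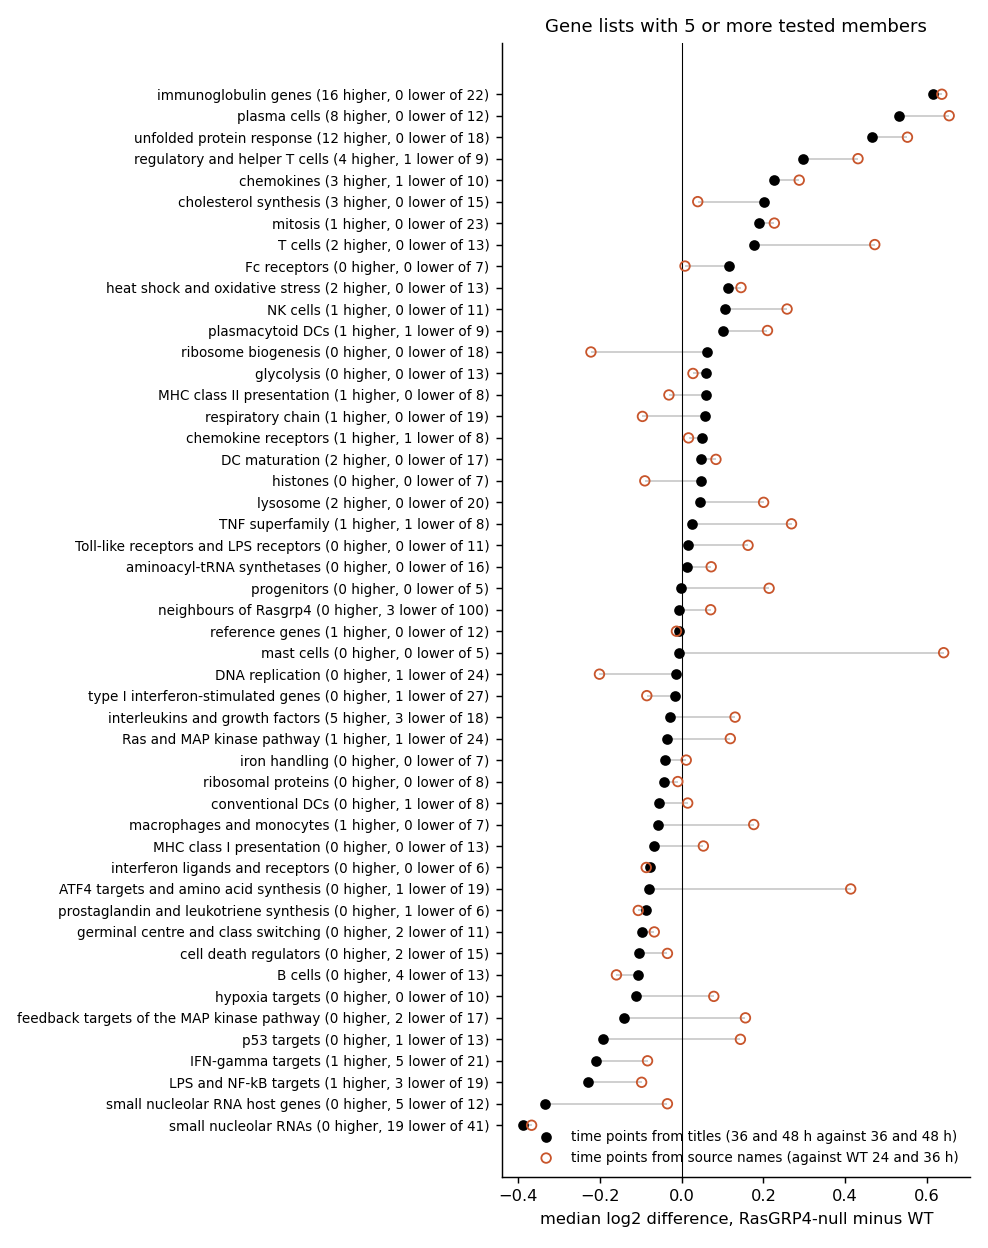
Median log2 difference between RasGRP4-null and WT cells for each gene list with 5 or more tested members, with time points from the titles (filled circles) and from the source names (open circles). The number of genes called higher and lower with the time points of the titles is given after each name; immunoglobulins (0.61), plasma cells (0.53) and the unfolded protein response (0.47) stand at the top with the time points of the titles, and snoRNAs (-0.39) at the bottom with both.

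The lists in which few or no genes were called include those of mast cells (0 of 5, median -0.01), reference genes (1 of 12 called higher, median -0.01) and sex-linked genes (0 of 4). For mast cells the 2 sets of time points gave different pictures. Cpa3, the carboxypeptidase of mast cells, was at 283.3 and 516.0 in WT cells and at 302.1 and 479.8 in RasGRP4-null cells, so that the late difference was -0.01 while the values of both genotypes were higher at 48 h than at 36 h. With the time points of the source names the difference of Cpa3 was 1.00, 3 of the 5 mast cell genes were called higher and their median was 0.64.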

How the data were processed

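The deposited values are PLIER intensities of Affymetrix MoGene 2.0 ST arrays, 1 array for each of 10 samples, which the authors computed in Affymetrix Expression Console. The column names carry the word Sketch, which points to a normalization between arrays before deposit. Versions and a genome build are not given in the sources used here. The other 2 tables hold these intensities multiplied by a GAPDH factor per array and served as alternatives; 10 columns in them repeat the PLIER values and were left out. None of the columns used holds a comparison made by the authors. An array has no sequencing depth, so that the number of arrays sets the precision.

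Of 41345 probe sets, 26660 named 1 gene, 3066 several and 11619 none. Old names were updated through the RefSeq gene table of GRCm38.p6 (24313 probe sets with a listed symbol, 1613 updated), and each of 25593 symbols was represented by its brightest probe set. The late fit, made with limma 3.58.1 (R 4.3.3), had 1 residual and 11.06 prior degrees of freedom. The test of late minus early differences over 8 LPS arrays had 2 and 6.72. All p-values are two-sided. The fits were tested on simulated data. Promoters were searched with Python 3.11.15, pandas 2.3.3 and numpy 2.4.6, and matplotlib 3.10.9 drew the plots.

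Named are the RasGRP family, Kit and the mediators that the study measured, the 15 highest and 15 lowest genes by the smaller of the 2 late differences, the 10 with the smallest p in each direction, up to 4 members of each list by p, and the 6 with the smallest p in each direction for late minus early. Further list members, Soat2, Bhlha15, Txndc5, Sec24d and Ero1b were named after their values were seen. Some list members are not reported here. The members and lists were chosen with earlier results of these data known, and the lists of immunoglobulins, snoRNAs and host transcripts after seeing their values. The alternatives were other scales (GAPDH, value table, quantile), pseudocounts (1, 64), filters (none, 100), all probe sets, an intensity trend, no time point term, the spread of 8 or 10 arrays, 0 h among the earlier times, time points of the source names, the methods' t-test, a 2-fold rule and single arrays left out; list counts under these were added after seeing the data.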

Additional observations from a re-analysis of the deposited data

Results flagged for a closer look

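Of the genes tested, 3 had a genotype difference that was not the same at 36 and 48 h as at 12 and 24 h (limma, 8 LPS arrays, adjusted p = 0.00995 for each). For Sgk1 the late difference minus the early difference was -1.92. Its difference between RasGRP4-null and WT cells was 0.70 at 12 h and 0.44 at 24 h, and -1.32 and -1.38 at 36 and 48 h. For Fam171b it was -1.99, from 0.06 and -0.07 to -2.16 and -1.84. For Ermn it was -2.48, from -0.12 and -0.01 to -2.90 and -2.19. Fam171b and Ermn were below background on all arrays of 12 and 24 h and on the RasGRP4-null array of 36 h, so that the sizes of these differences are not exact. With either array of 12 h left out, the earlier difference is that of 24 h alone, which was 0.44 (Sgk1), -0.07 (Fam171b) and -0.01 (Ermn). With 0 h among the earlier times Sgk1 was not called (-1.71, adjusted p = 0.0504 from limma). When the time points were taken from the source names of the arrays, none of the 3 was called, and the differences were -0.61 (Sgk1), -0.29 (Fam171b) and -0.26 (Ermn). The part that the disagreeing time labels play in these values was not tested.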

How the results depend on the processing

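The counts of calls depended on the source of the spread. Against 265 genes higher and 233 lower, there were 64 and 23 with no time point term, 24 and 17 with the spread of 8 or of 10 arrays (the 0 h arrays add no residual degree of freedom), 163 and 20 with the time points of the source names, and 0 and 0 with the methods' t-test after Benjamini-Hochberg adjustment (836 genes at an unadjusted p under 0.05). A 2-fold change at both time points was met by 7 and 7 genes, and a pseudocount of 1 gave 191 higher and 135 lower. The other scales, pseudocounts, filters and probe sets and an intensity trend gave 234 to 305 higher and 176 to 295 lower. With each of the 4 arrays left out in turn, fitted with the earlier LPS arrays so that the lone late array is assumed to vary like the others, 9 to 22 genes were called higher and 8 to 20 lower: leaving out either array of 36 h gave 22 and 8, and either array of 48 h gave 9 and 20. The late minus early test called 0 genes higher and 3 lower, 6 lower with GAPDH-normalized values, 0 lower with the source names, and 1 to 477 higher and 8 to 494 lower with an array left out (the most without either array of 24 h, the fewest higher without either array of 48 h and the fewest lower without either array of 36 h). Arrays were paired by time point in the fit, and the values with no time point term are those without that pairing. Beyond this block by time point, no pairing by replicate number was possible because each condition held 1 array.

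Signs changed with the source names for Il6 (0.0095), Gh (0.17), Pde7b (0.046), Dusp4 (0.60), Soat2 (0.92), Il1b (-0.20), Ebi3 (0.20), Cyp51 (-0.019), Ffar2 (0.089), Gm4963 (-0.22) and Snhg5 (0.087), and for genes not called, Rasgrp1 (0.064), Tnf (0.064), Ms4a1 (-0.10), Cpa3 (1.00) and 6330407A03Rik (-0.59). The other probe set of Ell2 gave 0.74. With an array left out, which leaves the difference of 1 late time point, Ifng ranged from -0.25 to 0.041, Ern1 from -0.28 to 0.34 and Cpa3 from -0.10 to 0.088.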
